A study of Rattus norvegicus with 12 samples.

Results

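The 37 genes described here belong to the interferon response and to antigen presentation, and they were followed in rat hearts. They were chosen by symbol from the 17602 genes of the deposited table. They comprise 2 sensors of viral RNA, 4 transcription factors, 17 antiviral effectors and their regulators, 4 interferon-inducible GTPases, 7 genes of antigen processing and presentation and 3 chemokines. All 37 were found, each in 1 row. The study asked whether raising NAD+ with nicotinamide (NAM), a form of vitamin B3 from which cells make NAD+, alters hearts of rats that model heart failure with preserved ejection fraction, in which the ventricle fills poorly although it ejects normally. Bulk RNA of cardiac muscle was sequenced in 12 ZSF1 rat samples. There were 4 lean samples, the non-failing controls, 4 obese samples without treatment, and 4 obese samples from rats given 24 mM NAM in their drinking water between weeks 8 and 20 of age. All groups share the hybrid ZSF1 background with its inherited hypertension. The labels call the obese rats obese by diet, whereas obesity in this strain is known to come from defective leptin receptor alleles. The labels give no age for the lean and the untreated obese group. They leave unsaid whether the 4 samples of a group are 4 different rats, and p-values cover the spread among samples only, which may be technical.

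Interferons are secreted proteins that cells release on sensing foreign nucleic acid. Type I interferons act through a receptor whose kinases lead to a complex with STAT2 and IRF9, which binds the interferon-stimulated response element (ISRE) in promoters. Interferon gamma acts through the gamma-activated site (GAS) and induces IRF1. The genes switched on restrict viruses, tag proteins, draw lymphocytes through chemokines, and load peptides onto MHC molecules. In heart muscle many of them are expressed at a low resting level by muscle, endothelial and resident immune cells alike. In bulk tissue, fewer cells of a type and less RNA per cell cannot be told apart.

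The 200 bases ahead of the annotated start are shown for 8 of the genes. Ifit3 and Irf1 stand for the members that were high in a single lean sample, and the other 6 passed the test in at least 1 comparison. Sequences are from RefSeq on build GRCr8, 5′ to 3′ on the gene's own strand, and capitals mark matches to an ISRE core or a GAS core. The positions are chr1:241527126-241527325 (+) for Ifit3, chr10:38417735-38417934 (+) for Irf1, chr16:18254968-18255167 (-) for Bst2, chr6:128355112-128355311 (+) for Ifi27, chr1:205482349-205482548 (-) for Ifitm2, chr1:205541759-205541958 (-) for Ifitm3, chr14:15973528-15973727 (+) for Cxcl11 and chr18:56527006-56527205 (+) for Cd74.
Ifit3: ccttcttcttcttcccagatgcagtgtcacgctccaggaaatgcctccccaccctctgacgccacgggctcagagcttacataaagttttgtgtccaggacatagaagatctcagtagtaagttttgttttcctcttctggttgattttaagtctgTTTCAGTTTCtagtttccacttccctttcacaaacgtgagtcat
Irf1: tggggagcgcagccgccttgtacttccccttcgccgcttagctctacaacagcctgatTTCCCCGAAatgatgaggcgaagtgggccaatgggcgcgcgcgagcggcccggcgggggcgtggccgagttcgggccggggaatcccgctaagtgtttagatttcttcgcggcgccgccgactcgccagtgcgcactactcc
Bst2: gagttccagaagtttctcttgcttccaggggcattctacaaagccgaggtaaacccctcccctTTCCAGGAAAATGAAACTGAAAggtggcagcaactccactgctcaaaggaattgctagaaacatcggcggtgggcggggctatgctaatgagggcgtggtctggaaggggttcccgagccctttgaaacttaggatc
Ifi27: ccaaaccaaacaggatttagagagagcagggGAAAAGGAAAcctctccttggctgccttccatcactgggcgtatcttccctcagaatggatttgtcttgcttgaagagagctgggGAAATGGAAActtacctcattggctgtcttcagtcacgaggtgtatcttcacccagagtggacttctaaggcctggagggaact
Ifitm2: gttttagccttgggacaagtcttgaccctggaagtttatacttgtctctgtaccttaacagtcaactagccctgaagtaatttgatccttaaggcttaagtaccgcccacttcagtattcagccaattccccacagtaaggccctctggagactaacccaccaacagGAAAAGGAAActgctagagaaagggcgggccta
Ifitm3: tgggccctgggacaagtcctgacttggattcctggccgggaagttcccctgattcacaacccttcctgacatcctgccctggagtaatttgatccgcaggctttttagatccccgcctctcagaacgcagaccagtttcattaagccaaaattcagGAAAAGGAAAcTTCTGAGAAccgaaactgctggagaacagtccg
Cxcl11: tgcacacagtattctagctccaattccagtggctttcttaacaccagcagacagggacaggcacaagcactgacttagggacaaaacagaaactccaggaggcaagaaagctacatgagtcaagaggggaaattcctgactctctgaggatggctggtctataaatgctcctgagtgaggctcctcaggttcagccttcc
Cd74: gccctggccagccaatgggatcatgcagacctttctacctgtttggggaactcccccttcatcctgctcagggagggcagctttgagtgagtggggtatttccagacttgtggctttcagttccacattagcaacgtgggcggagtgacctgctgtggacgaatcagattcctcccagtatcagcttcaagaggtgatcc
In the Bst2 sequence 2 ISRE cores and 1 GAS core overlap in a single run, and in Ifi27 the 2 ISRE cores lie 169 and 84 bases before the start. Cxcl11 and Cd74 hold no match in these 200 bases.

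The ISRE core was searched as GAAA, any 2 bases and GAAA, or on the other strand as TTTC, any 2 bases and TTTC. The GAS core was searched as TTC, any 3 bases and GAA, which reads the same on both strands. The windows ran from 250 bases before to 50 bases after the start. RefSeq gave a window for 32 of the 37 genes, and Dhx58, Isg15, Usp18, Ifit2 and Mx2 had none. An ISRE core was present in 21 of the 32 windows (65.6%), beside 3.92% of all 33469 windows of that length. A GAS core was present in 11 (34.4%), beside 8.87% of all windows, and 6 of the 32 held neither. A match is a run of letters and not a measured binding site.

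**Figure D1:**
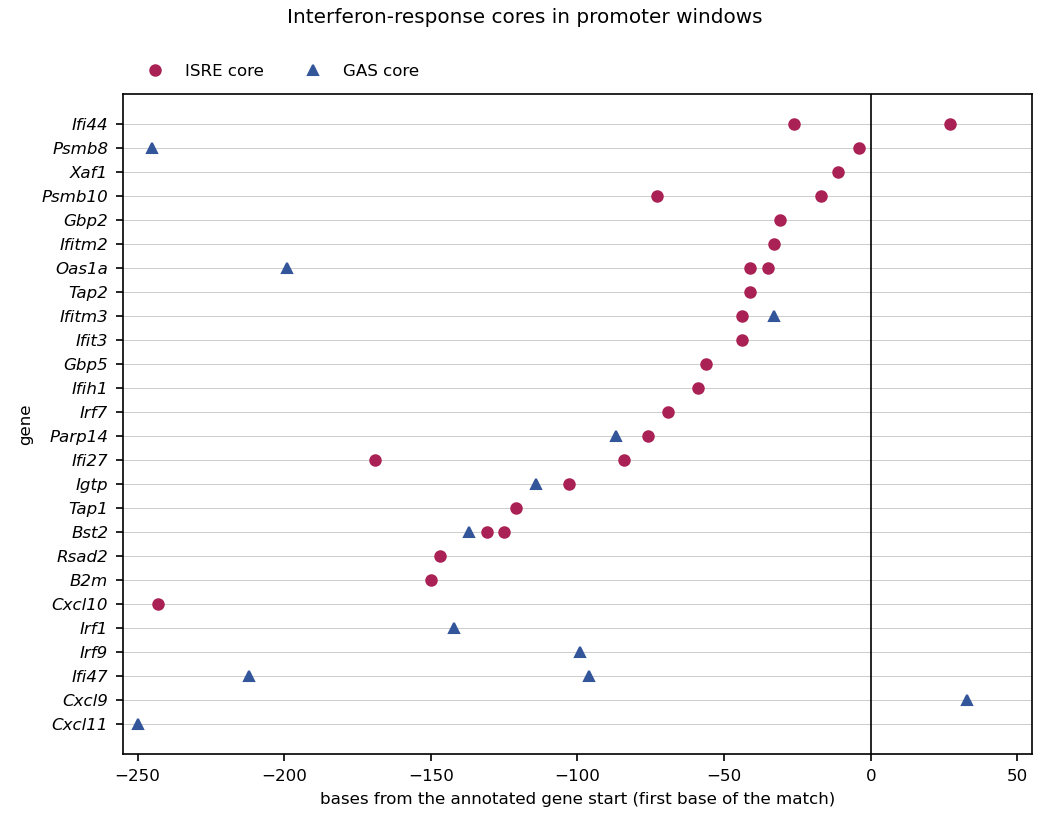
Position of each ISRE core (circles) and GAS core (triangles) in the promoter windows of the genes that hold at least 1 match, in bases from the annotated start (vertical line). The match of Ifit3 lies 44 bases before the start, that of Ifitm2 33 bases before it, and the GAS core of Cxcl11 begins 250 bases before it, at the edge of the window.

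Several of these genes are neighbours. In RefSeq's order of protein-coding genes, Tap2, Psmb8, Tap1 and Psmb9 follow each other on chromosome 20, Cxcl11, Cxcl10 and Cxcl9 on chromosome 14, and Ifit2 and Ifit3 on chromosome 1. Close relatives such as Ifitm2 and Ifitm3, Mx1 and Mx2, or Gbp2 and Gbp5 can share reads. How the authors' counting assigned such reads is not given in the labels.

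Values are TPM, the length-corrected share of a sample's transcripts per 1e6, so levels of different genes can be compared but the sequencing depth is unknown. Between 14762 and 15152 genes lay above 0 in a sample. The summed TPM of 8 cardiomyocyte markers was 18970 to 21980 in the lean group, 13380 to 15170 in the obese group and 16480 to 19130 in the NAM-treated group, so the labelled tissue's defining genes were abundant. TPM is a share, and the general level of the genes differed between groups. The median log2 difference over all 10526 tested genes was -0.20 for obese relative to lean, 0.25 for treated relative to untreated obese and 0.05 for treated relative to lean samples. The set and its called genes were therefore also compared on rescaled values. For these every sample was divided by its median ratio to the average sample, and there the median gene moved by at most 0.01. Some differences are given on deposited values only. No batch is named in the labels, and any batch that coincides with a group cannot be told apart from it.

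Most of the genes were expressed at a low level. B2m, the light chain of MHC class I, had the highest mean over the 12 samples at 290.2 TPM. In all, 7 genes had a mean of at least 10 TPM, 28 lay between 1 and 10 TPM, and 2 lay below 1 TPM. These 2 were Dhx58, a regulator of the viral RNA sensors, with a mean of 0.821 TPM and 10 samples below 1, and Oasl, a relative of the oligoadenylate synthetases, with a mean of 0.365 TPM and all 12 samples below 1. Neither passed the filter of at least 1 TPM in at least 4 samples, so 35 genes were tested. Of those tested, Cxcl10 lay below 1 TPM in 5 samples and Xaf1 in 1, obese replicate 3 at 0.868 TPM. The counting error of such low values is unknown.

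Lean replicate 1 stood above the other lean samples across this set. It was the highest lean sample in 26 of the 35 tested genes (74.3%), beside 38.5% of all tested genes. On rescaled values it was highest in 23 (65.7%), beside 29.1% of all genes. Irf1, the transcription factor induced by interferon gamma, was at 26.6 TPM in lean replicate 1 and at 4.67, 8.32 and 3.39 TPM in lean replicates 2, 3 and 4. The 8 obese and NAM-treated samples lay between 4.21 and 8.96 TPM, so a single library carried the high lean mean of Irf1. Ifit3, an antiviral protein that binds viral RNA together with its relatives, was at 10.9 TPM there and at 4.88, 4.87 and 4.93 TPM in the other 3 lean samples. Isg15, a ubiquitin-like protein attached to other proteins after interferon, was at 7.0 TPM there and at 3.83, 3.12 and 1.97 TPM in the others. Irf7, which amplifies type I interferon production, was at 11 TPM there and at 5.84, 7.17 and 4.15 TPM in the others. These 4 genes were 4.87, 2.23, 2.36 and 1.92 times the mean of the other 3 lean samples, in the order Irf1, Ifit3, Isg15 and Irf7. Rsad2, an antiviral enzyme that makes a chain-terminating nucleotide, was the reverse, at 1.34 TPM in lean replicate 1 and at 3.33, 3.0 and 2.15 TPM in the others. The summed TPM of 12 macrophage markers was 104.1 in lean replicate 1, within the 72.65 to 115.9 of the other lean samples. The 6 dendritic cell markers summed to 4.92 TPM in lean replicate 1, the highest of all 12 samples, and to 2.03, 2.34 and 3.12 TPM in the other lean samples. Of these markers Clec9a was at 3.04 TPM there and at 0.558, 0.873 and 1.45 TPM in the others, so 1 gene made up most of that sum. Zbtb46 was at 1.67 TPM in lean replicate 1, below its 2.16 TPM in NAM-treated replicate 1. Flt3 and Siglech were at 0 in lean replicate 1, Xcr1 at 0.0859 and Ccr7 at 0.116 TPM. The part of dendritic cells in the high values of lean replicate 1 was not tested. Lean replicate 4 was at the other end, the lowest lean sample in 22 genes (62.9%) beside 26.3% of all genes. NAM-treated replicate 1 was the highest of its group in 25 genes (71.4%), beside 40.5% of all genes, and on rescaled values in 19 (54.3%), beside 25.4%.

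The median deviation of the 35 genes from their mean over 12 samples was 0.35 on the log2 scale in lean replicate 1 and -0.12 in lean replicate 4. After rescaling, the NAM-treated samples had median deviations of -0.06, -0.09, -0.15 and -0.24. The obese samples then had 0.13, 0.02, 0.16 and -0.02, and the lean samples 0.25, 0.10, 0.07 and -0.16. So on rescaled values the medians of the 4 NAM-treated samples lay below those of all 4 obese samples, while the lean medians spread from -0.16 to 0.25. The mean deviations of the same genes overlapped there, at 0.005 in NAM-treated replicate 1 and -0.012 in obese replicate 4. On deposited values the median of NAM-treated replicate 1 was 0.135, above the highest obese median of 0.011 in obese replicate 3.

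**Figure D2:**
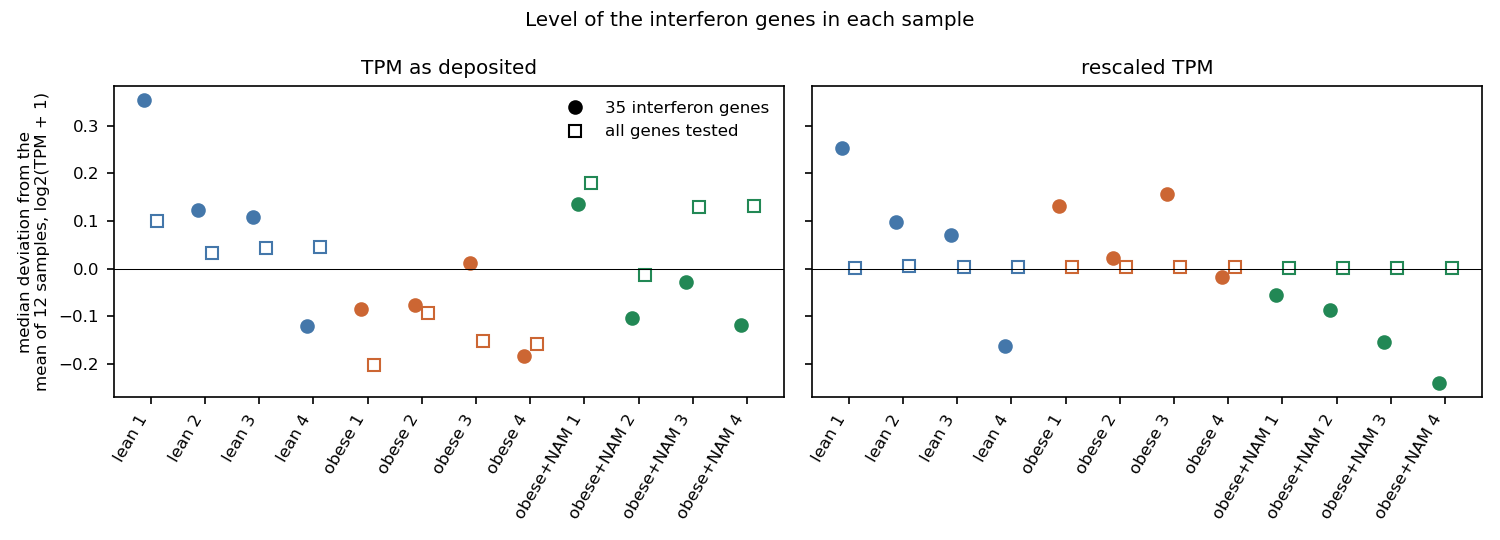
Median deviation of the 35 tested genes (filled circles) and of all 10526 tested genes (open squares) from the mean of the 12 samples, in log2(TPM + 1), for each sample, on deposited values (left) and rescaled values (right). Lean replicate 1 is highest at 0.35 and 0.25, and the lowest rescaled value is -0.24 in NAM-treated replicate 4.

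Across the set, few genes passed the test, with adjusted p under 0.05 taken as called. Every adjusted p of a gene is from limma with Benjamini-Hochberg adjustment over all 10526 genes, and every log2 difference is on the log2(TPM + 1) scale, which understates changes of low genes. In obese against lean hearts 4 of the 35 were called, 11.4%, below the 16.8% of all tested genes. Cxcl11, Usp18 and Cd74 were lower and Ifitm2 was higher. On rescaled values 1 was called, Ifitm2, where 1.34% of all genes were. In NAM-treated against obese hearts 2 of the 35 were called, beside 29.2% of all genes, with Cd74 higher and Ifi27 lower (28.8% of all genes were called higher and 0.466% lower). On rescaled values 2 were called, Bst2 and Ifitm3, both lower, beside 0.713% of all genes in either direction and 0.513% lower. In NAM-treated against lean hearts 2 were called, Bst2 and Usp18, both lower, beside 1.83% of all genes in either direction and 0.969% lower. On rescaled values 3 were called, Bst2, Usp18 and Cxcl11, all lower, beside 2.36% in either direction and 1.59% lower. The comparisons share samples, since the obese group enters the first and the second and the lean group the first and the third.

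The median log2 difference of the 35 genes in obese against lean hearts was -0.20, as was that of all genes, and on rescaled values it was 0.02. In NAM-treated against obese hearts the median was 0.07 where that of all genes was 0.25. On rescaled values it was -0.20 beside -0.01, and 28 of the 35 genes were lower and 7 higher. In NAM-treated against lean hearts it was -0.12 beside 0.05, and on rescaled values -0.15 beside 0.00. The mean of the NAM-treated group was the lowest of the 3 groups in 24 of the 35 genes on rescaled values and in 11 on deposited values. The lean mean was the highest in 16 and in 22, and the obese mean in 16 and in 4. The order of group means was not counted over all genes, so these counts are not shown to be particular to this set. The median differences moved when single samples were left out. Without lean replicate 1, the deposited median of obese against lean was -0.09 while that of all genes was -0.18, and the median of NAM-treated against lean was -0.014, with 17 genes higher and 18 lower. The rescaled medians without it were 0.10, -0.20 and -0.09 in the same order of comparisons. Without lean replicate 4, the median of NAM-treated against lean was -0.19 on deposited and -0.25 on rescaled values, and without NAM-treated replicate 3 its deposited value was -0.06. The deposited median of NAM-treated against obese was -0.011 without NAM-treated replicate 1, with 17 genes higher and 18 lower, 0.039 without obese replicate 4 and 0.041 without NAM-treated replicate 3. Its rescaled median was -0.12 without NAM-treated replicate 4, with 24 genes lower and 11 higher, and between -0.24 and -0.14 on leaving out any other sample. The rescaled median of obese against lean changed sign with the sample left out, from -0.084 without lean replicate 4 to 0.10.

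Leaving out lean replicate 1 also changed the calls, both of these genes and of all genes. On deposited values 2 were then called in obese against lean (Cxcl11 and Usp18 lower), beside 9.5% of all genes, and 1 in NAM-treated against lean (Bst2 lower), beside 1.03%. On rescaled values 2 were called (Ifitm2 and Ifitm3 higher), beside 0.532% of all genes, and 1 (Bst2 lower), beside 1.13%. NAM-treated against obese gave 2 calls on each scale, beside 29.8% and 0.637% of all genes.

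Whether groups overlapped was counted without a model. On rescaled values 7 genes had every NAM-treated sample below every obese sample, namely Irf7, Ifitm2, Ifitm3, Ifi27, Bst2, Ifi44 and Gbp2, and none had the reverse. Among all genes 4.3% were lower without overlap and 4.87% higher. Against lean, 8 genes had every rescaled NAM-treated value lower (Usp18, Ifit3, Ifi27, Bst2, Psmb9, Psmb10, Tap2 and Cxcl11) and none higher, beside 6.35% and 5.84% of all genes. Between obese and lean samples on rescaled values Ifitm2 was higher without overlap and Ifit3 and Cxcl11 lower, beside 4.26% and 5.31% of all genes. The counts differed on deposited values. There 0 genes were lower and 2 higher without overlap (Mx2 and Cd74) in NAM-treated against obese, beside 0.333% and 28% of all genes. Against lean 5 genes were lower in NAM-treated samples (Usp18, Ifit3, Bst2, Psmb10 and Cxcl11) and 0 higher, beside 3.81% and 6.94%. On deposited values the obese group lay wholly below the lean group in Usp18, Ifit2, Ifit3, Cd74 and Cxcl11 and wholly above it in Ifitm2, beside 23.2% and 0.627% of all genes.

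**Figure D3:**
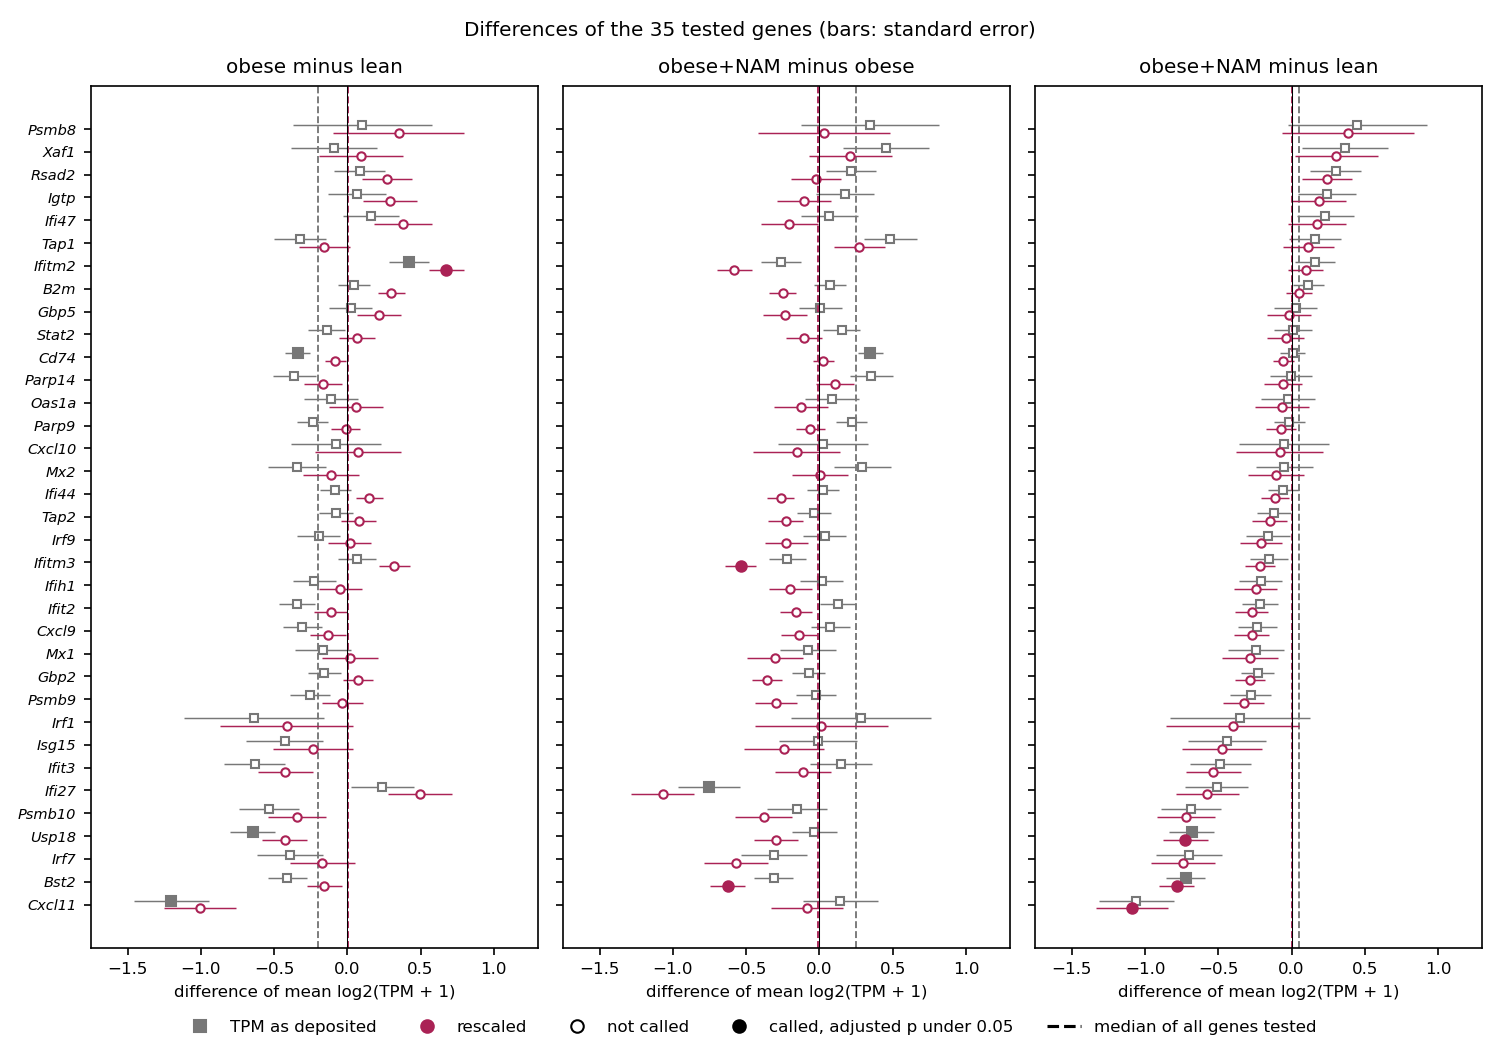
Difference of mean log2(TPM + 1) for each of the 35 tested genes in the 3 comparisons, with standard errors as bars, on deposited (grey squares) and rescaled values (red circles). Filled symbols mark adjusted p under 0.05 and dashed lines the median of all tested genes, which is -0.20, 0.25 and 0.05 on deposited values. The called gene farthest from 0 is Cxcl11 at -1.20 in obese against lean.

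Sensors and transcription factors gave no call by limma in any comparison on either scale, and of the 5 tested only Irf7 had an unadjusted p under 0.05. Ifih1, the sensor of long double-stranded RNA known as MDA5, was at 2.59 ± 0.764 TPM in the lean, 2.03 ± 0.299 TPM in the obese and 2.07 ± 0.375 TPM in the NAM-treated group (mean ± SD, n = 4 as for all group means here). Stat2, a transcription factor of type I signalling, was at 4.11 ± 0.92, 3.57 ± 0.187 and 4.10 ± 0.517 TPM. Irf9, its DNA-binding partner, was at 4.83 ± 1.18, 4.02 ± 0.419 and 4.18 ± 0.727 TPM. All 3 had overlapping groups in every comparison. Irf7 was at 4.43, 4.28, 5.73 and 5.07 TPM in obese and at 5.2, 4.10, 2.91 and 3.04 TPM in NAM-treated samples. Its log2 difference in NAM-treated against obese was -0.31 (SE 0.23, adjusted p = 0.319), and on rescaled values, where the groups did not overlap, -0.57 (SE 0.22, adjusted p = 0.236).

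Of the 16 tested antiviral effectors and regulators, 2 were called in obese against lean (Usp18 lower, Ifitm2 higher) on deposited values. Usp18, the protease that removes ISG15 and dampens the type I receptor, was at 9.66, 6.96, 6.77 and 5.59 TPM in lean samples. It was at 4.64, 4.82, 3.71 and 3.72 TPM in obese and at 4.80, 4.61, 3.92 and 3.11 TPM in NAM-treated samples. Every lean sample lay above all 8 others. Usp18 fell by 0.64 in obese against lean on the log2 scale (SE 0.15, adjusted p = 0.0146), and it stayed called whichever of the 12 samples was left out (-0.74 to -0.51). On rescaled values the difference was -0.43 (SE 0.15, adjusted p = 0.179) and the groups overlapped. Usp18 fell in NAM-treated against lean by 0.68 (SE 0.15, adjusted p = 0.0431) and, rescaled, by 0.72 (SE 0.15, adjusted p = 0.0304). The deposited call was lost on leaving out any sample except lean replicate 4, with adjusted p up to 0.12 and differences from -0.78 to -0.55. The rescaled call was lost without lean replicate 1, 2 or 3 or NAM-treated replicate 1, 3 or 4 (adjusted p up to 0.0892, differences from -0.82 to -0.61).

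Bst2, also called tetherin, holds budding virus particles at the cell surface. It was at 54.9, 43.3, 36.7 and 42.0 TPM in lean, at 35.2, 30.3, 37.2 and 28.7 TPM in obese and at 30.7, 22.4, 24.3 and 27.7 TPM in NAM-treated samples. All NAM-treated samples lay below all lean samples, and obese samples overlapped both groups. Bst2 fell in NAM-treated against lean by 0.72 (SE 0.13, adjusted p = 0.0169), and by 0.79 on rescaled values (SE 0.12, adjusted p = 0.00603). The rescaled call held on leaving out each of the 12 samples (-0.86 to -0.70), and the deposited call was lost only without NAM-treated replicate 3 (-0.69, adjusted p = 0.0596). In NAM-treated against obese the rescaled levels were 26.2, 22.6, 21.7 and 24.7 against 41.9, 32.6, 42.5 and 32.8, without overlap. That difference was -0.63 (SE 0.12, adjusted p = 0.0393), against -0.31 (SE 0.13, adjusted p = 0.0912) on deposited values. The rescaled call was lost in 9 of 12 fits with a sample left out, being kept only without lean replicate 1, lean replicate 3 or obese replicate 2 (adjusted p up to 0.121, differences from -0.69 to -0.56).

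Ifi27, a small membrane protein induced by type I interferon, had its widest spread among obese samples. It was at 78.8, 71.2, 69.1 and 60.4 TPM in lean, at 107, 67.3, 112 and 57.1 TPM in obese and at 61.8, 43.8, 38.5 and 52.9 TPM in NAM-treated samples. Obese replicates 1 and 3 lay far above obese replicates 2 and 4, and NAM-treated replicate 1 overlapped the lower obese samples. Ifi27 fell in NAM-treated against obese by 0.75 (SE 0.21, adjusted p = 0.0225), while the median gene moved by 0.25 upward. On rescaled values the groups did not overlap and the difference was -1.07 (SE 0.22, adjusted p = 0.056). The deposited call was lost without obese replicate 1, obese replicate 3 or NAM-treated replicate 3, with adjusted p up to 0.0619 and differences from -0.93 to -0.61.

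Ifitm2 and Ifitm3 are small membrane proteins that block the fusion of viruses with endosomes. Ifitm2 was at 42.9, 39.2, 40.9 and 34.2 TPM in lean, at 47.8, 45.5, 58.5 and 61.1 TPM in obese and at 44.3, 33.8, 48.3 and 51.2 TPM in NAM-treated samples. Each obese sample lay above each lean sample. Ifitm2 was 0.42 higher in obese than in lean hearts on the log2 scale (SE 0.14, adjusted p = 0.0487) and 0.68 higher on rescaled values (SE 0.12, adjusted p = 0.0209). It was the only 1 of the 35 genes called higher there, where 0.352% of all genes were called higher on deposited and 0.589% on rescaled values. The deposited call was kept only without obese replicate 2, NAM-treated replicate 2 or NAM-treated replicate 4 (adjusted p up to 0.125, differences 0.35 to 0.49). The rescaled call was lost without lean replicate 2 or 4 or obese replicate 3 or 4 (adjusted p up to 0.0631, differences 0.60 to 0.77). The rescaled difference in NAM-treated against obese was -0.58 (SE 0.12, adjusted p = 0.0535), without overlap, and the deposited one -0.26 (SE 0.14, adjusted p = 0.156).

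Ifitm3 was at 97.0, 69.1, 65.9 and 68.3 TPM in lean, at 68.7, 78.1, 83.3 and 81.0 TPM in obese and at 79.2, 57.6, 66.8 and 64.2 TPM in NAM-treated samples. Lean replicate 1 was the highest of all 12, while the other 3 lean samples lay within the NAM-treated range. Ifitm3 fell by 0.54 in NAM-treated against obese on rescaled values (SE 0.10, adjusted p = 0.0393), without overlap, and its difference was -0.22 on deposited values (SE 0.13, adjusted p = 0.215). The rescaled call was kept only without lean replicate 1 or obese replicate 2 (adjusted p up to 0.125, differences from -0.59 to -0.50). In obese against lean the rescaled difference was 0.32 (SE 0.10, adjusted p = 0.14). Without lean replicate 1 that became 0.43 (adjusted p = 0.0392).

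The other tested effectors were not called in any comparison, and Ifit2, Ifit3, Ifi44, Parp9 and Parp14 had an unadjusted p under 0.05 in at least 1. Ifit3 was at 2.92, 3.74, 3.55 and 4.00 TPM in obese samples, all below the lowest lean sample, with a deposited difference of -0.63 (SE 0.21, adjusted p = 0.0552). Without lean replicate 1 the deposited difference of Ifit3 was -0.38 (adjusted p = 0.0879). Isg15 was at 3.98 ± 2.15, 2.54 ± 0.852 and 2.47 ± 0.55 TPM in the lean, obese and NAM-treated groups. Mx1 and Mx2, dynamin-like GTPases that block virus replication, were at 2.90 ± 1.04, 2.42 ± 0.672 and 2.20 ± 0.0887 TPM and at 10.2 ± 3.37, 7.51 ± 0.968 and 9.41 ± 1.01 TPM. Oas1a, which makes the 2′-5′ oligoadenylates that activate RNase L, was at 1.98 ± 0.548, 1.74 ± 0.356 and 1.94 ± 0.668 TPM. Parp9 and Parp14, ADP-ribosyltransferase family members that use NAD+ or bind its product, were also without a call. Parp14 was at 3.88 ± 0.894, 2.77 ± 0.409 and 3.82 ± 0.571 TPM, and Parp9 at 7.05 ± 0.884, 5.81 ± 0.513 and 6.94 ± 0.669 TPM.

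The 4 interferon-inducible GTPases, of families that act against microbes held in vacuoles, gave no call by limma, with adjusted p of at least 0.128. Only Gbp2 had an unadjusted limma p under 0.05, on rescaled values with NAM. Gbp2 was at 7.41 ± 1.13, 6.50 ± 0.262 and 6.16 ± 0.864 TPM and Gbp5 at 2.76 ± 0.766, 2.77 ± 0.438 and 2.77 ± 0.119 TPM in the lean, obese and NAM-treated groups. Ifi47 was at 4.77 ± 1.80, 5.25 ± 0.575 and 5.58 ± 0.98 TPM, and Igtp at 6.16 ± 1.67, 6.37 ± 0.678 and 7.58 ± 2.62 TPM. Lean replicate 1 was not the highest lean sample in Gbp5, Ifi47 and Igtp.

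**Figure D4:**
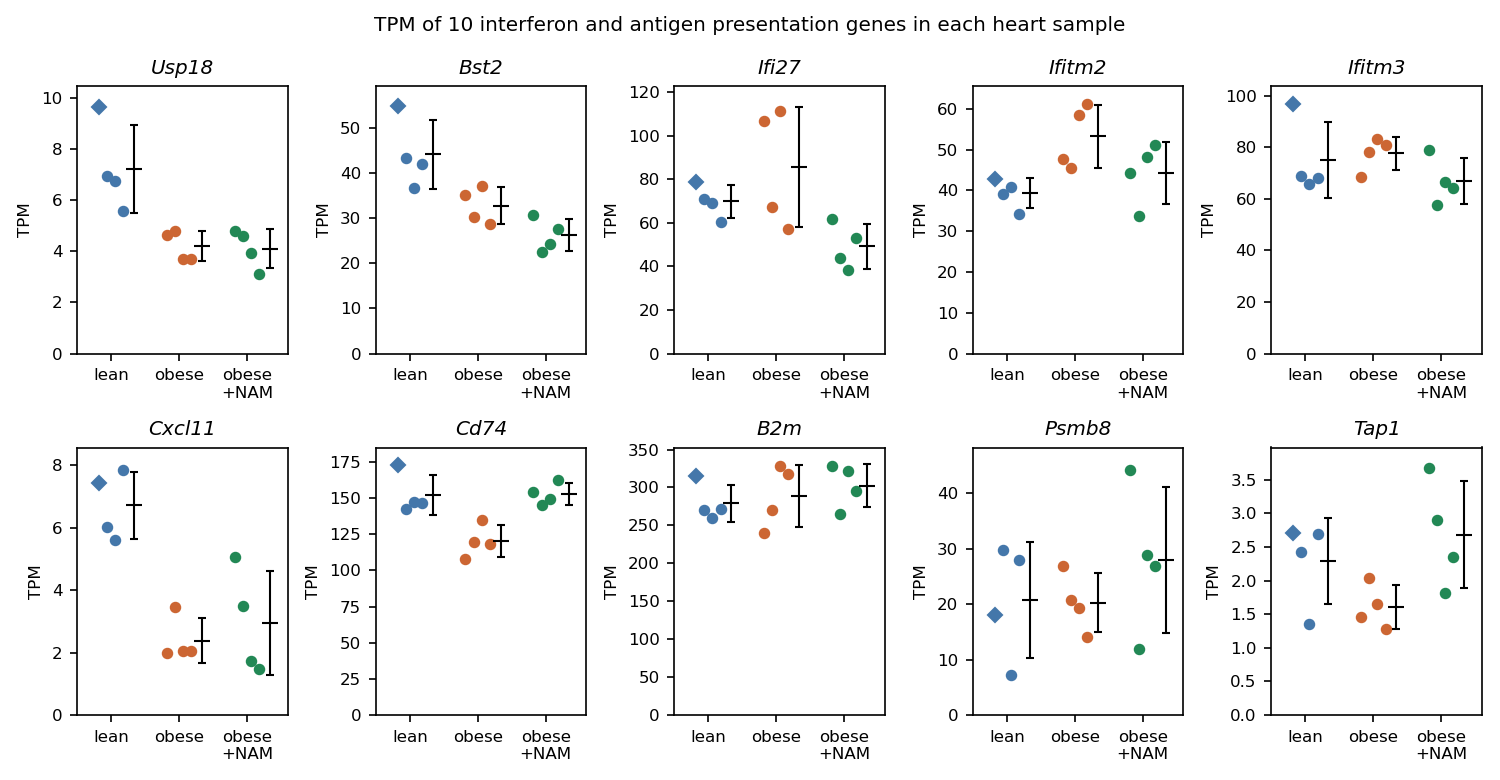
TPM of 10 genes in each of the 12 samples (points; the diamond is lean replicate 1), with mean and SD (n = 4) beside each group. Every lean sample of Usp18, at 5.59 TPM or more, lies above all other samples, and Psmb8 spans 7.23 to 44.1 TPM with every group overlapping.

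Among the 7 genes of antigen processing and presentation, Cd74 was the only 1 called. Cd74, the invariant chain that guards the groove of MHC class II, was at 173, 142, 147 and 146 TPM in lean samples. It was at 108, 119, 134 and 118 TPM in obese and at 154, 145, 149 and 162 TPM in NAM-treated samples, and the obese group lay wholly below both others. Cd74 fell by 0.34 in obese against lean (SE 0.09, adjusted p = 0.0188) and was 0.35 higher in NAM-treated than in obese hearts (SE 0.09, adjusted p = 0.0116). Both differences went the way of the median of all genes, -0.20 and 0.25. On rescaled values they were -0.08 (SE 0.07, adjusted p = 0.636) and 0.03 (SE 0.07, adjusted p = 0.9), with overlap in both. The deposited call against lean was lost without lean replicate 1 (-0.28, adjusted p = 0.054) and without obese replicate 1, and that against obese was kept in all 12 fits with a sample left out (0.30 to 0.40).

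B2m was at 315, 271, 259 and 271 TPM in lean, at 240, 270, 328 and 317 TPM in obese and at 328, 265, 322 and 296 TPM in NAM-treated samples. The groups overlapped throughout, and its differences ranged from 0.04 to 0.12, with adjusted p of at least 0.626. On rescaled values they were 0.30, -0.25 and 0.05 in the same order of comparisons (adjusted p = 0.123, 0.207 and 0.83), so the sign of the difference between NAM-treated and obese samples depended on the scale. Tap1, a pump that carries peptides to MHC class I, was at 2.70, 2.43, 1.36 and 2.69 TPM in lean, at 1.46, 2.03, 1.66 and 1.27 TPM in obese and at 3.67, 2.90, 1.81 and 2.36 TPM in NAM-treated samples. Its difference in NAM-treated against obese was 0.48 (SE 0.18, adjusted p = 0.0583) and, rescaled, 0.27 (SE 0.17, adjusted p = 0.491). Tap2, its partner, was at 1.55 ± 0.124, 1.43 ± 0.35 and 1.35 ± 0.164 TPM, and was not called.

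Psmb8, Psmb9 and Psmb10 are the catalytic subunits that turn the standard proteasome into the immunoproteasome. Psmb8 was at 18.1, 29.8, 7.23 and 27.9 TPM in lean, at 26.9, 20.8, 19.3 and 14.0 TPM in obese and at 44.1, 11.9, 28.8 and 26.8 TPM in NAM-treated samples. Its spread within groups exceeded any difference between them (SE 0.47 for each difference, adjusted p of at least 0.609). Psmb9, beside it on the chromosome, was at 6.49 ± 0.817, 5.31 ± 1.02 and 5.21 ± 0.91 TPM. Psmb10 was at 5.04, 4.38, 4.63 and 3.25 TPM in lean, at 2.75, 4.69, 1.84 and 1.91 TPM in obese and at 2.26, 1.95, 3.04 and 1.99 TPM in NAM-treated samples. All its NAM-treated values lay below all lean values, with a deposited difference of -0.69 (SE 0.20, adjusted p = 0.12).

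The ratio of each immunoproteasome subunit to the standard subunit it replaces does not depend on the scaling of a sample. Psmb10/Psmb7 was 0.0339, 0.0347, 0.0388 and 0.0249 in lean samples, 0.0288, 0.0413, 0.0224 and 0.0182 in obese and 0.0163, 0.0155, 0.0224 and 0.0148 in NAM-treated samples. The log2 ratio was -0.94 in NAM-treated against lean, with no overlap (exact 2-sided permutation p = 0.02857, the smallest possible with groups of 4). With adjustment over 9 tests, 3 ratios in 3 comparisons, the exact p became 0.2571. Psmb8/Psmb5 averaged 0.590 ± 0.339, 0.777 ± 0.187 and 0.846 ± 0.337 and Psmb9/Psmb6 0.267 ± 0.144, 0.280 ± 0.0826 and 0.415 ± 0.200 (SD). The mean of Psmb9 itself was not higher with NAM, at 5.31 TPM in obese and 5.21 TPM in NAM-treated samples. Psmb6 was lower with NAM, with deposited log2 differences of -0.49 against obese and -0.92 against lean, neither called by limma. The other 8 tests had raw exact permutation p from 0.08571 to 0.9143, so no ratio passed. Because of the size of the groups, adjusted values could pass 0.05 only if several ratios reached the smallest p.

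**Figure D5:**
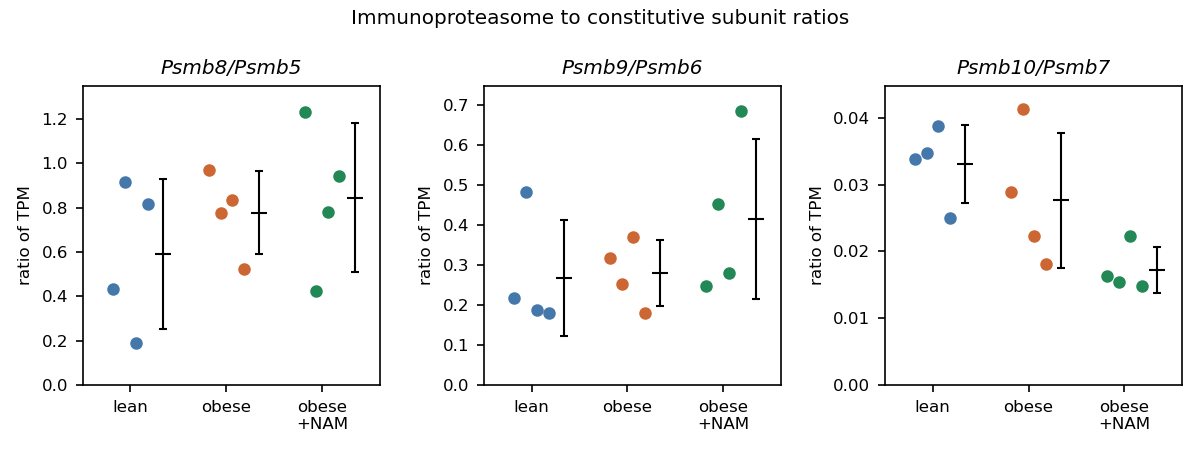
Ratio of TPM of each immunoproteasome subunit to its standard counterpart in every sample, with mean and SD (n = 4). Psmb10/Psmb7 lies between 0.0148 and 0.0224 in NAM-treated and between 0.0249 and 0.0388 in lean samples.

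Cxcl9, Cxcl10 and Cxcl11 are the chemokines that attract T cells through the receptor CXCR3. Cxcl11 was at 7.43, 6.0, 5.62 and 7.83 TPM in lean, at 1.98, 3.46, 2.06 and 2.04 TPM in obese and at 5.05, 3.50, 1.74 and 1.46 TPM in NAM-treated samples. Every lean sample lay above all 8 obese and NAM-treated samples. Cxcl11 fell by 1.20 in obese against lean on the log2 scale (SE 0.26, adjusted p = 0.00972), and the call held whichever sample was left out (-1.34 to -1.13). On rescaled values the difference was -1.01 (SE 0.25, adjusted p = 0.0716), again without overlap. In NAM-treated against lean it was -1.06 (SE 0.26, adjusted p = 0.0618) and, rescaled, -1.09 (SE 0.25, adjusted p = 0.0424). The rescaled call was kept only without obese replicate 2 or NAM-treated replicate 1 or 2 (adjusted p up to 0.121, differences from -1.29 to -0.89). NAM-treated replicates 1 and 2 lay above replicates 3 and 4, and the difference from obese was 0.14 (SE 0.26, adjusted p = 0.701), or -0.08 rescaled.

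Its neighbours did not follow with a call. Cxcl9 was lower at an unadjusted limma p under 0.05 in obese against lean on deposited values, by 0.31. The same held in NAM-treated against lean on rescaled values, by 0.27. Cxcl9 was at 2.59 ± 0.473, 1.91 ± 0.423 and 2.05 ± 0.296 TPM and Cxcl10 at 1.41 ± 0.714, 1.26 ± 0.466 and 1.44 ± 1.22 TPM in the lean, obese and NAM-treated groups. Cxcl10 was at 3.21 TPM in NAM-treated replicate 1 and between 0.559 and 1.33 TPM in the other 3.

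Other genes of the pathway were taken from lists of 69 genes, of which 64 were in the table and 50 were tested. In obese against lean 6 of the 50 were called, all lower, beside 16.5% of all genes called lower. In NAM-treated against obese 9 were called, all higher, beside 28.8% of all genes called higher. Between NAM-treated and lean 0 were called by limma, with 3 at an unadjusted p under 0.05. On rescaled values 0 were called in any comparison, with 9, 7 and 4 at an unadjusted limma p under 0.05. The share of all genes at that unadjusted level was not counted, so nothing can be read from these counts. Differences of the genes named next are on deposited values. They went the way of the median of all genes, -0.20 in obese against lean and 0.25 in NAM-treated against obese. Jak1, the kinase of both receptors, was at 21.3 ± 0.951, 15.7 ± 1.83 and 20.7 ± 2.28 TPM and had deposited differences of -0.42 and 0.38 (adjusted p = 0.0135 and 0.0145). Mavs, the mitochondrial adaptor of the RNA sensors, was at 12.0 ± 0.341, 8.65 ± 1.64 and 13.6 ± 1.03 TPM, with differences of -0.45 and 0.62 (adjusted p = 0.0228 and 0.00446). Canx, a chaperone of MHC class I folding, was at 53.6 ± 6.29, 41.6 ± 3.24 and 60.9 ± 5.52 TPM, with differences of -0.35 and 0.54 (adjusted p = 0.03 and 0.00423). Psmb7 and Psmb5, standard proteasome subunits, were at 131 ± 12.5, 99.2 ± 13.4 and 134 ± 5.70 TPM and at 36.6 ± 4.10, 26.1 ± 2.03 and 32.3 ± 4.71 TPM. They had differences of -0.40 and -0.47 in obese against lean hearts (adjusted p = 0.0174 and 0.0151). Psmb7 was 0.44 higher with NAM (adjusted p = 0.00863). Ifit1, an antiviral relative of Ifit2 and Ifit3, was at 3.92 ± 1.63, 3.09 ± 0.634 and 3.10 ± 0.353 TPM and was not called.

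Markers of T, B, natural killer and dendritic cells were low in these hearts, and those of macrophages were not. The 12 macrophage markers summed to 72.65 to 115.9 TPM in lean, 46.07 to 211.8 TPM in obese and 105.1 to 115.8 TPM in NAM-treated samples, with Lyz2 alone at 25.1 to 126 TPM. None was at 0 in a whole group, and 0 of 11 tested were called by limma in any comparison. At an unadjusted p under 0.05 there were 0 on deposited values in each comparison, and on rescaled values 1 between obese and lean, 1 between NAM-treated and obese samples and 0 in the remaining comparison. Within the obese group they summed to 46.07, 112.8, 211.8 and 176.0 TPM, and Ifi27 at 107, 67.3, 112 and 57.1 TPM did not follow that order. All 11 tested macrophage markers had a higher mean in obese than in lean hearts on rescaled values, with a median log2 difference of 0.28, and 10 of 11 had a lower mean with NAM, with a median of -0.19. The differences of Ifitm2 and Ifitm3 had the same signs on that scale. Within the obese group rescaled Ifitm3, at 81.7, 84.1, 95.2 and 92.5, followed the order of the macrophage sums. Rescaled Ifitm2, at 56.8, 49.0, 66.9 and 69.8, did not. The rescaled lean maximum of Ifitm2 was 39.3. The macrophage sums are on deposited values, unlike these levels of Ifitm2 and Ifitm3. The part of macrophages in these values was not tested. The summed TPM of 8 T cell markers, of which 7 were in the table, was 0.492 to 3.44 over all samples, and that of 5 B cell markers, 4 in the table, was 0.00 to 0.559. Markers of natural killer cells summed to 2.88 to 9.54 TPM and those of dendritic cells to 1.92 to 4.92 TPM. The highest dendritic cell sum was in lean replicate 1, where Clec9a alone was at 3.04 TPM. The endothelial markers summed to 44.85 to 60.4 TPM in lean, 37.55 to 53.37 TPM in obese and 47.87 to 63.14 TPM in NAM-treated samples.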

How the data were processed

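Cardiac muscle of ZSF1 rats was sequenced as total RNA in 3 groups of 4 samples with a strand-specific library kit, per the labels' protocols. The deposited values are TPM per gene, and limma and the assembly Rnor_6.0 are named in the submitters' processing notes. No aligner or counting tool is named there. In the NAM-treated columns 498 of 17602 genes hold a text mark, and they were left out; none is among the 37 genes. The filter required 1 TPM or more in 4 or more of the 12 samples (10526 genes kept). Values as log2(TPM + 1) were fitted with limma 3.58.1 in R 4.3.3 (3 group means over all 12 samples, eBayes with trend and robust, statmod 1.5.0), 2-sided, with Benjamini-Hochberg adjustment over all kept genes and a threshold of 0.05. The same fit was made after median-of-ratios rescaling. Ratios of TPM were compared by exact permutation with scipy 1.17.1. The procedure was tested on simulated data. Depth cannot be recovered from TPM.

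The members and lists were chosen with earlier results of these data known. Values in every sample are given for members called in any comparison on either scale, for the 5 with the highest mean, and for the largest and smallest difference per comparison. Other pathway genes are named where their adjusted p was smallest, with Ifit1, by group means and differences; 1 gene of that rule is not reported here. Irf1, Irf7, Ifit3, Isg15, Rsad2 and Psmb10 are given as well, chosen after their values were seen. Motifs were counted in RefSeq windows on GRCr8. Other settings were pseudocounts of 0.1 and 5, no filter, a mean of at least 5 TPM, quantile normalization, TPM without mitochondrially encoded genes, plain eBayes (no trend, not robust), a fit to each pair of groups, a replicate block, and each sample left out.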

Additional observations from a re-analysis of the deposited data

Results flagged for a closer look

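Of 114 groups of 4 values, 6 had an end sample far from the nearest other sample by Dixon's 95% critical value. In all 6 it was the highest sample. Chance gives about 1 in 20 independent groups, counting both ends. These groups share the same samples and are not independent, so the count cannot be set against chance. Lean replicate 1 holds 3 of the 6. Ifit3 was at 10.9 TPM there and at most 4.93 in the other lean samples. Ifitm3 was at 97.0 TPM there, with 69.1 as the next lean value. Cd74 was at 173 TPM there, with 147 as the next. Obese replicate 3 had Ifi44, an interferon-induced protein, at 9.98 TPM, with 7.98 as the next obese value. Obese replicate 2 had Cxcl11 at 3.46 TPM, with 2.06 as the next. Lean replicate 2 had a Psmb9/Psmb6 ratio of 0.482, with 0.217 as the next. Psmb9 itself was at 6.38 TPM there, within the lean range of 5.92 to 7.68 TPM.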

How the results depend on the processing

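Counts of the 35 genes called were 4 of obese against lean, then 2 with NAM against obese and 2 with NAM against lean. The share of all genes called in the same fit follows each count in parentheses. Obese against lean gave 1 call with median-of-ratios rescaling (1.34%), with quantile normalization (1.2%), without mitochondrially encoded genes (0.789%) and with rescaling and the replicate block together (1.07%). It gave 5 with pseudocounts of 0.1 (17%) and 5 (16.2%) and among the 18 of these genes averaging 5 TPM or more (34%), and 3 without a filter (8.1%) and with plain eBayes (16.5%). NAM-treated against obese gave 1 with quantile normalization (0.627%) and with a fit to the 8 samples of the pair (24.3%), 0 with rescaling and the replicate block (0.276%), and 3 without mitochondrially encoded genes (3.07%). NAM-treated against lean gave 1 without a filter (0.725%), with plain eBayes (1.23%) and with a fit to the 8 samples (1.28%), and 3 with a pseudocount of 5 (1.99%), rescaling (2.36%), quantile normalization (2.12%) and without mitochondrially encoded genes (7.05%). Leaving out 1 sample gave 2 to 5, 1 to 3 and 0 to 2 calls on deposited values. The shares of all genes in those fits were 9.5% to 18.6%, 17.6% to 34.4% and 0.665% to 1.8%. On rescaled values it gave 0 to 2, 0 to 4 and 1 to 4 calls. There the shares were 0.39% to 2.12%, 0.095% to 1.54% and 0.998% to 2.74%. The causes were not tested. Correlations between same-numbered samples, after group means were removed, ran from -0.049 to 0.072. They are not set against other pairs and cannot decide whether same-numbered samples share a litter, cage or day. The replicate block gave 5 (13.5%), 3 (24.3%) and 2 (1.25%) calls, and with rescaling 2 for NAM-treated against lean (1.76%).

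In NAM-treated against obese, B2m reversed to -0.25 with rescaling (also with the block), -0.12 with quantile normalization and -0.13 without mitochondrial genes, and Cxcl11 to -0.083 (also with the block), -0.052 and -0.022. Cd74 against lean reversed to -0.055 with rescaling, also with the block. None of these was called on either side. With 1 sample left out, in NAM-treated against obese B2m ranged from -0.0130 to 0.14 (rescaled -0.31 to -0.18), Cxcl11 from -0.10 to 0.34 (rescaled -0.29 to 0.11), Usp18 from -0.10 to 0.064 (rescaled -0.38 to -0.19), Psmb8 from 0.09 to 0.69 (rescaled -0.19 to 0.33) and Cd74 from 0.30 to 0.40 (rescaled -0.000589 to 0.085). In obese against lean B2m ranged from -0.022 to 0.13 (rescaled 0.23 to 0.36) and Psmb8 from -0.31 to 0.33 (rescaled -0.056 to 0.58). In NAM-treated against lean Cd74 ranged from -0.022 to 0.071 (rescaled -0.079 to -0.011), Psmb8 from 0.038 to 0.79 (rescaled -0.022 to 0.68) and Tap1 from 0.0058 to 0.28 (rescaled -0.036 to 0.24). The log2 ratio Psmb8/Psmb5 in NAM-treated against obese ranged from -0.16 to 0.35 and Psmb9/Psmb6 in obese against lean from -0.0083 to 0.47. Cxcl11 and Usp18 in obese against lean and Bst2 and Usp18 in NAM-treated against lean kept their direction under the settings tried. In obese against lean, Cxcl11 and Usp18 were not called on rescaled values. With 1 sample left out, Ifitm2 in obese against lean also kept its direction (0.35 to 0.49, rescaled 0.60 to 0.77). So did Ifi27 in NAM-treated against obese (-0.93 to -0.61, rescaled -1.24 to -0.92). With 4 samples a group, unknown depth and most genes under 10 TPM, a difference that missed the threshold is not shown to be absent.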
